A study of Mus musculus with 4 samples.

Results

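The liver holds, beside its hepatocytes, resident macrophages (Kupffer cells), the endothelium of the sinusoids and the stellate cells that lie between endothelium and hepatocytes. Described here are 40 marker genes of these cells, 14 of Kupffer cells, 13 of sinusoidal endothelium and 13 of stellate cells and the matrix they make. The genes were taken from lists of names, by finding the assembled transcript loci of each library that overlap their exons on mouse build GRCm38. They are 40 of the 12828 protein-coding genes with a usable locus in at least 1 library.

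Liver RNA came from male C57BL/6 mice, 2 libraries from mice carrying the disrupted hemojuvelin gene on both alleles (knockout) and 2 from wild type mice. Wild type mice were bought from a vendor and knockout mice came from another laboratory, so genotype and source of the animals cannot be told apart. The labels limit the disruption to no cell type. All animals, wild type included, were fed for 50 days, starting when 5 weeks old, on a soy-free AIN-93G diet low in iron (2.5 mg per kg), and were 12 weeks old when tissue was taken. Whether each library is a separate animal is not stated in the labels, so p-values measure the spread between these libraries, which may be technical. No group on another diet was analysed here.

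Kupffer cells engulf aged red cells, break down their heme and return the iron to plasma through the exporter ferroportin, and they clear particles coated with complement. Sinusoidal endothelial cells line fenestrated capillaries, take up waste molecules through scavenger receptors and release the bone morphogenetic proteins (BMPs) that act with hemojuvelin on hepatocytes to induce hepcidin, the hormone that restrains iron export. Stellate cells store vitamin A as retinyl esters, make hepatocyte growth factor and, when activated in injured liver, lay down fibrillar collagen.

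A gene's value is the mean FPKM of its loci (fragment density, corrected for transcript length and library depth) in a library, weighted by exonic bases and divided by a library factor (scaled FPKM). Differences are log2(scaled FPKM + 1), knockout minus wild type. The libraries hold 55 and 132 M fragments in the knockout pair, and 86.9 and 51.2 M in the wild type pair, if the step between confidence bounds of short loci is 1 fragment. Knockout replicate 1 was the most fragmented, with 93 used loci over the 40 genes. The other knockout library held 61, and the wild type pair 79 and 78. Marker loci left out for any reason numbered 19 and 3 in knockout, against 4 and 2 in wild type. Those left out for an FPKM far above its bounds lay in the knockout libraries only, nearly all in replicate 1. The targeted gene (Hjv, annotated as Hfe2) had no usable locus in knockout replicate 1. It measured 0.236 scaled FPKM in knockout replicate 2, against 9.22 and 29.6 in the wild type libraries. Its loci spanned 14.3% of a coding transcript in knockout replicate 2, against 45.1% and 81.5% in wild type, so the values cover unequal parts. Hepatocyte markers measured 61.3 (Hnf4a) to 5367 (Ttr) scaled FPKM where assembled. The highest of the 40 markers reached 73.1.

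The median difference from wild type was negative for Kupffer cell markers and positive for endothelial and for stellate and matrix markers. Of 13 Kupffer cell markers tested, 6 were lower in both knockout libraries than in both wild type libraries, 0 were higher and 7 overlapped. Of 12 endothelial markers tested, 3 were higher in both knockout libraries, 1 was lower and 8 overlapped. Of 9 stellate and matrix markers tested, 5 were higher in both knockout libraries, 0 were lower and 4 overlapped. Over all 7932 genes tested, the knockout pair was wholly higher than the wild type pair for 22.3% and wholly lower for 23.8%, so 46.1% did not overlap. The median log2 difference was -0.29 for Kupffer cell markers, 0.17 for endothelial markers and 0.58 for stellate and matrix markers, beside 0.017 for all genes tested. In bulk tissue, fewer cells of a type and less RNA per cell cannot be told apart.

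**Figure D1:**
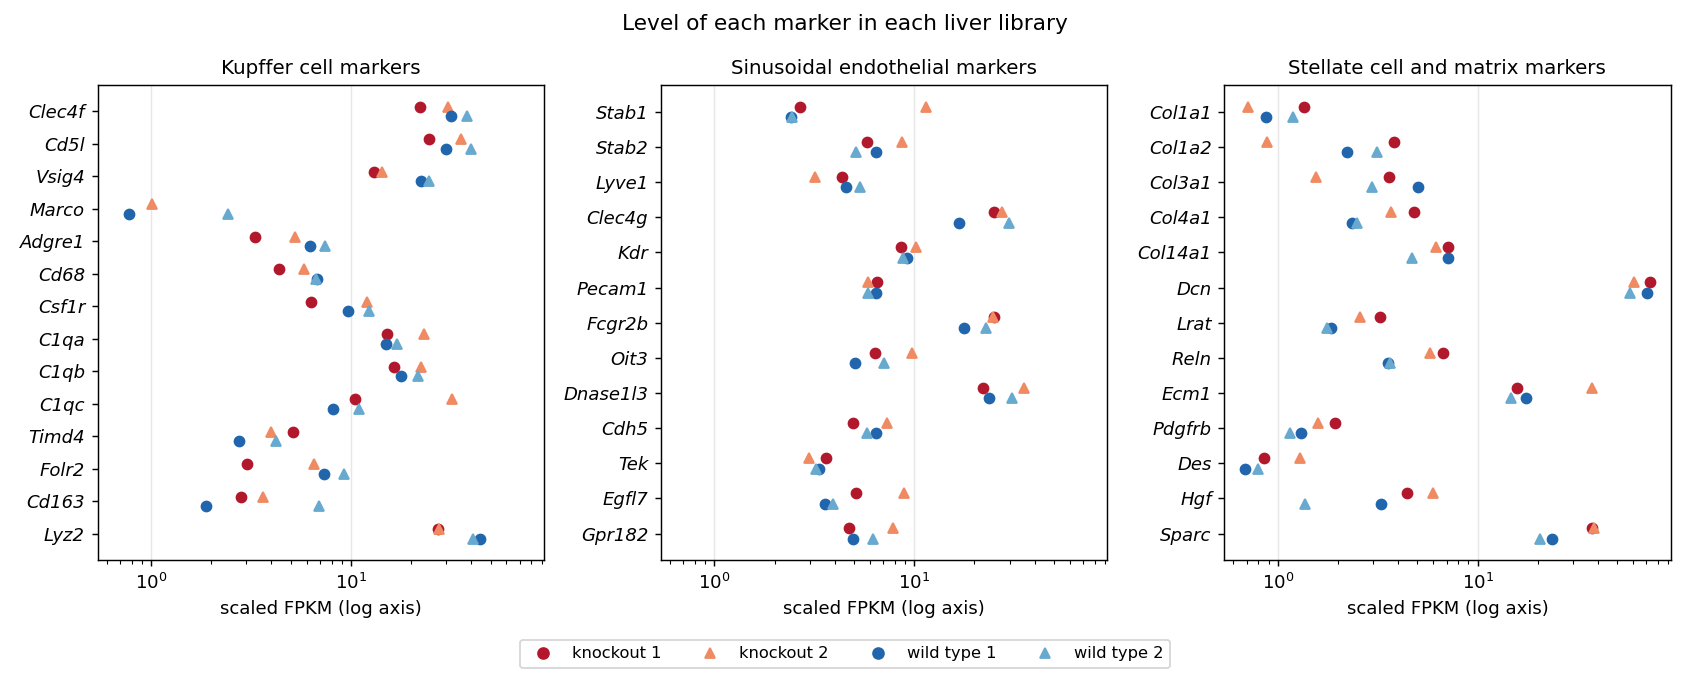
Scaled FPKM (log axis) of each of the 40 markers in each library, by cell type; circles are replicate 1 and triangles replicate 2, red for knockout and blue for wild type. Both red points of Sparc lie to the right of both blue points, and both red points of Vsig4 and Lyz2 lie to the left of theirs; Marco has no point for knockout replicate 1.

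By limma over all genes, 0 of the 34 markers tested passed an adjusted p of 0.05, as for 0 of all genes (0%). At an unadjusted p under 0.05, 5.85% of all genes were higher and 5.33% lower in knockout, 887 genes together. Among the markers, 2 Kupffer cell markers (Vsig4 and Lyz2) were lower and 4 stellate and matrix markers (Sparc, Reln, Col4a1 and Hgf) were higher at that unadjusted level, with 0 endothelial markers in either direction. The smallest p an exact two-sided permutation test could reach here for any 1 gene is 0.333.

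The stretches upstream of the start sites of these 6 genes are shown because they are the members that stood furthest from the spread of the libraries. Each is the 250 bases before the start in RefSeq on GRCm38.p6, given 5′ to 3′ on the gene's strand, and capitals mark matches to short motifs. The motifs searched on both strands were GAGGAA, the core bound by PU.1, the factor of macrophage genes; GGCGCC, the core of a BMP-responsive element; TGANTCA, an AP-1 site; and TGACNNNGC, an antioxidant response element, of which the last 2 can overlap.
Vsig4: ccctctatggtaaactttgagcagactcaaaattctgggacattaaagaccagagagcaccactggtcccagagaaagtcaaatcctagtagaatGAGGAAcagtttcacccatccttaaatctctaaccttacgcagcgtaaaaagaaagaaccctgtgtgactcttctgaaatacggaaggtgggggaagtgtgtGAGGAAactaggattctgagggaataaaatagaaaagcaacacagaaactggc
Lyz2: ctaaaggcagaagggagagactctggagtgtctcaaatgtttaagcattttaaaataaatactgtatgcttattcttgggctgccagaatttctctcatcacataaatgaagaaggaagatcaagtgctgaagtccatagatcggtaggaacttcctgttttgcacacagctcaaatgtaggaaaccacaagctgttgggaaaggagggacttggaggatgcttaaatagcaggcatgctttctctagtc
Sparc: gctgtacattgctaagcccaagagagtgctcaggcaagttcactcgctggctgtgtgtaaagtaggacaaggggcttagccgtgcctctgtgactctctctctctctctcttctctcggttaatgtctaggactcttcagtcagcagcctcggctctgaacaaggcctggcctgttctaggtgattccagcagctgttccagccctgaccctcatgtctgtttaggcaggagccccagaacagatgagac
Reln: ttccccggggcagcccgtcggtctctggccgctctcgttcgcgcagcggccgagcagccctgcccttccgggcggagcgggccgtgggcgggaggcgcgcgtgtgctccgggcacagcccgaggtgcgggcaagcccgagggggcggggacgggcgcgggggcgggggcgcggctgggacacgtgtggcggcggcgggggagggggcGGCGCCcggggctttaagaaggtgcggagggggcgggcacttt
Col4a1: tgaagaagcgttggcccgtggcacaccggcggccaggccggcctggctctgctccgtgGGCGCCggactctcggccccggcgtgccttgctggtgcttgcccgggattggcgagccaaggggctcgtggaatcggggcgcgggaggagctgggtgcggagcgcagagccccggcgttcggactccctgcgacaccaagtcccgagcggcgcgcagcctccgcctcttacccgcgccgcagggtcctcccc
Hgf: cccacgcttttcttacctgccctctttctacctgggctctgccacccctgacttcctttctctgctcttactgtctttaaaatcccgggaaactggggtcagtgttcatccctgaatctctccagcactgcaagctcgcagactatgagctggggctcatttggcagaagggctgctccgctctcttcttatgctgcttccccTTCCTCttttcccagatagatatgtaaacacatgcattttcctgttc
The stretches lie at chrX:96293439-96293688 (minus strand), chr10:117282273-117282522 (minus), chr11:55420081-55420330 (minus), chr5:22344706-22344955 (minus), chr8:11312827-11313076 (minus) and chr5:16553245-16553494 (plus). Vsig4 holds 2 matches to the PU.1 core and Hgf 1, while Reln and Col4a1 each hold 1 match to the BMP element. Those of Lyz2 and Sparc hold 0 matches to any of the motifs in these windows. The RefSeq start of Sparc lies 3103 bases inside the GENCODE gene, whose own start was not searched, and that of Lyz2 49 bases inside. The stretches differ in base composition, with 80.0% G and C upstream of Reln and 74.4% upstream of Col4a1, against 41.6% upstream of Lyz2 and 43.2% upstream of Vsig4.

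Upstream stretches were found in RefSeq for 27 of the 40 markers. The PU.1 core was in at least 1 stretch of 6 of 11 Kupffer cell markers, 1 of 7 endothelial markers and 1 of 9 stellate and matrix markers, beside 25.9% of all genes in the table. The BMP element was in 0, 0 and 3 genes of the same lists, in that order, beside 10.8% of all genes. The AP-1 site was in 2, 0 and 1 genes, beside 7.82%, and the antioxidant element in 3, 2 and 0, beside 11.5%. These matches describe letters only.

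Among Kupffer cell markers, Folr2, Vsig4 and Lyz2 had the most negative log2 differences. Vsig4 (chrX:96247203-96293438), a receptor for complement-coated particles, measured 13.1 and 14.3 scaled FPKM in the knockout libraries, against 22.4 and 24.7 in the wild type libraries. The groups did not overlap, with a log2 difference of -0.74 (SE 0.18, limma adjusted p = 0.402). Lyz2 (chr10:117277331-117282321), the lysozyme of macrophages and other myeloid cells, measured 27.3 and 27.5 scaled FPKM in the knockout libraries, against 44.04 and 40.6 in the wild type libraries. The 2 libraries of each genotype lay close together, at 27.4 ± 0.117 in knockout and 42.3 ± 2.42 in wild type (SD, n = 2 each), and gave a log2 difference of -0.61 (SE 0.17, limma adjusted p = 0.419). Folr2, a folate receptor of tissue macrophages, measured 3.01 and 6.55 in knockout, against 7.32 and 9.24 in wild type, and knockout replicate 1 alone was far below the rest. Its log2 difference was -0.75 (SE 0.36, limma adjusted p = 0.505).

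Adgre1, the macrophage surface antigen that defines mouse Kupffer cells in tissue sections, measured 3.30 and 5.25 in knockout, against 6.21 and 7.42 in wild type, with a log2 difference of -0.59 and an SE of 0.26. Clec4f, a lectin found on Kupffer cells in mice and few other cells, measured 22.3 and 30.4 in knockout, against 31.7 and 37.9 in wild type, with a log2 difference of -0.40 and an SE of 0.23. Cd68, a lysosomal membrane protein of macrophages, measured 4.36 and 5.84 in knockout, against 6.73 and 6.72 in wild type, with a log2 difference of -0.35 and an SE of 0.21. For all 3 genes both knockout libraries lay below both wild type libraries, and knockout replicate 1 was the lower of the knockout pair. For Clec4f, knockout replicate 2 and wild type replicate 1 were nearly level.

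Other Kupffer cell markers overlapped between the genotypes. Csf1r, the receptor for the growth factor that macrophages need, measured 6.32 and 11.97 in knockout, against 9.65 and 12.3 in wild type. Cd5l, a secreted protein of tissue macrophages, measured 24.6 and 35.4 in knockout, against 29.9 and 39.8 in wild type, so that each genotype held 1 higher and 1 lower library. Cd163, which takes up hemoglobin bound to haptoglobin, measured 2.81 and 3.63 in knockout, against 1.89 and 6.91 in wild type, and the wild type pair differed by more than the genotypes. Timd4, a receptor for phosphatidylserine on dying cells, measured 5.16 and 3.98 in knockout, against 2.75 and 4.24 in wild type, with a log2 difference of 0.32 and an SE of 0.26. Marco, a scavenger receptor, was assembled in 3 libraries, at 1.01 in knockout replicate 2, against 0.773 and 2.43 in wild type. Knockout replicate 1 held no locus of it, and it was not tested.

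The chains of C1q, the recognition molecule of the classical complement pathway that macrophages secrete, overlapped between the genotypes. C1qa measured 15.2 and 23.1 in knockout, against 14.9 and 17.1 in wild type, and C1qb 16.4 and 22.4 in knockout, against 17.8 and 21.8 in wild type. C1qc measured 10.5 and 32.1 in knockout, against 8.10 and 11 in wild type, with 32.1 in knockout replicate 2 standing apart. The 3 genes had log2 differences of 0.22, -0.033 and 0.90 and SEs of 0.26, 0.24 and 0.53. The C1qc difference was -0.12 when the highest locus of each library was taken. Without knockout replicate 1 it was 1.69, with 1 knockout library left. The 3 genes have 59.5%, 57.4% and 57.5% G and C in their transcripts, above the 49.4% of the median gene tested.

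The lower level of Kupffer cell markers rested mostly on knockout replicate 1. Their median log2 difference was -0.024 without that library and -0.53 without knockout replicate 2. Leaving out wild type replicate 1 gave -0.46, and leaving out replicate 2 of that genotype gave -0.14. Vsig4 and Lyz2 kept their direction in each of these, at -0.74 and -0.61 with all libraries and at -0.65 and -0.57 without knockout replicate 1.

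Of 28 other Kupffer and macrophage genes, 21 were tested, and 3 were higher and 8 lower in both knockout libraries, with a median log2 difference of -0.13. By the same unadjusted level 1 was higher and 4 were lower. Those lower included Mpeg1, a pore-forming protein of phagocytes (12.7 and 13.9 in knockout, against 21.9 and 25.7 in wild type), and Ctss, the lysosomal protease cathepsin S (21.5 and 19.6 in knockout, against 30.6 and 45.2 in wild type). Il18bp, which neutralises a cytokine of the interleukin family, measured 5.78 and 3.48 in knockout, against 9.35 and 8.95 in wild type, and C6, a complement component also made by hepatocytes, 33.3 and 23.96 in knockout, against 102 and 118 in wild type. Ferroportin (Slc40a1), through which macrophages and hepatocytes export iron, lay the other way at 60.96 and 62.2 in knockout, against 38.2 and 37.3 in wild type, with a log2 difference of 0.69. Clec1b and Msr1 were the remaining tested genes of this list higher in both knockout libraries, with log2 differences of 0.31 and 0.49. Hmox1, which opens the heme ring, overlapped at 11.1 and 14.4 in knockout, against 8.65 and 12.04 in wild type. Spic, a factor of iron-recycling macrophages, was at 1.06 in knockout replicate 2, against 1.33 and 2.64 in wild type, with no usable locus in the other knockout library.

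**Figure D2:**
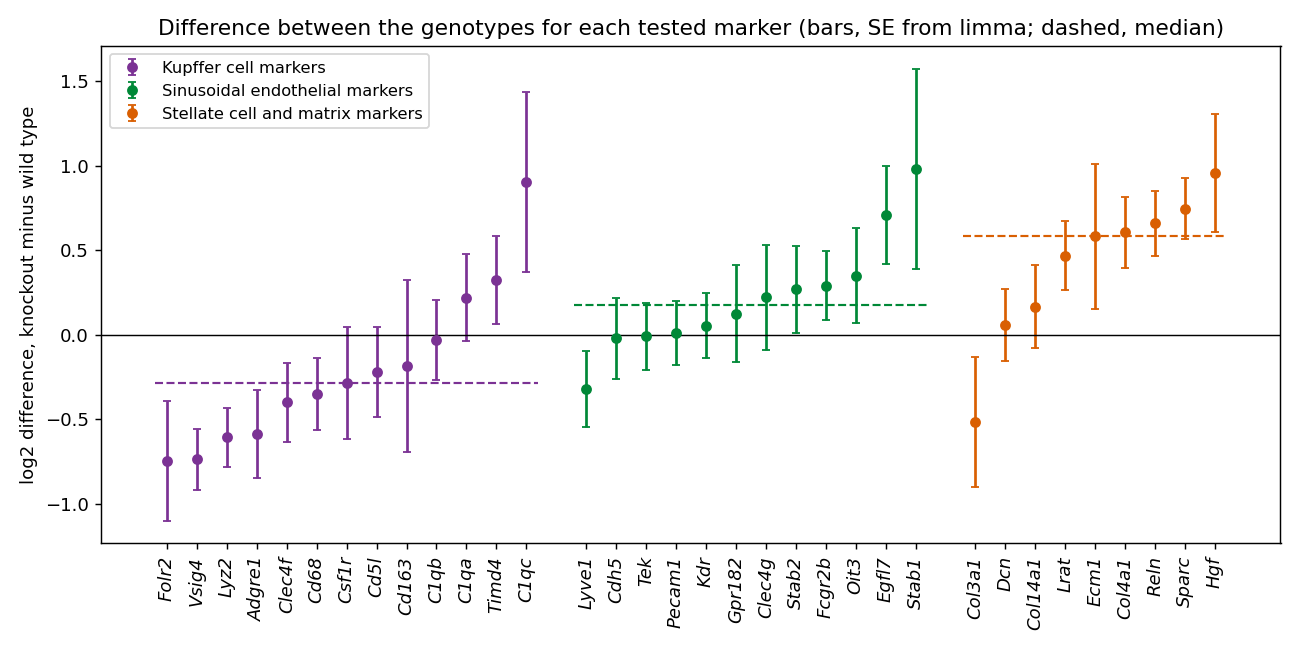
Log2 difference, knockout minus wild type, of each of the 34 markers tested, with its SE from limma (bars) and the median of each cell type (dashed lines at -0.29, 0.17 and 0.58). Most Kupffer cell markers lie below 0, endothelial markers lie around it, and 8 of 9 stellate and matrix markers lie above it.

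Of the 12 endothelial markers tested, 9 had a log2 difference above 0 and 3 below it, and Kdr, Pecam1, Cdh5 and Tek lay nearest to 0. Kdr, the main receptor for vascular endothelial growth factor, measured 8.56 and 10.2 scaled FPKM in the knockout libraries, against 9.15 and 8.83 in the wild type libraries. Pecam1, an adhesion molecule of endothelial junctions, measured 6.49 and 5.89 in knockout, against 6.46 and 5.84 in wild type, and the cadherin of those junctions, Cdh5, 4.93 and 7.27 in knockout, against 6.45 and 5.78 in wild type. Tek, the angiopoietin receptor, measured 3.60 and 2.96 in knockout, against 3.35 and 3.23 in wild type. The log2 differences of these 4 genes were 0.053, 0.0087, -0.022 and -0.0085, each smaller than its SE of 0.19, 0.19, 0.24 and 0.20. A difference of the size of the SE could not be detected with these libraries.

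The other endothelial markers were more varied. Stab1, a scavenger receptor, measured 2.67 and 11.5 in knockout, against 2.41 and 2.45 in wild type. Both knockout libraries were above, but knockout replicate 1 by little, and the log2 difference of 0.98 had an SE of 0.59. Without knockout replicate 1 it was 1.87, and without knockout replicate 2 it was 0.092, each with 1 knockout library left. Stab2, the related hyaluronan receptor, measured 5.82 and 8.66 in knockout, against 6.44 and 5.11 in wild type, and Lyve1, another hyaluronan receptor, 4.37 and 3.19 in knockout, against 4.55 and 5.35 in wild type. Lyve1 was the 1 endothelial marker lower in both knockout libraries, with a log2 difference of -0.32 and an SE of 0.22.

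Egfl7 (chr2:26580014-26593120), a protein that endothelium secretes into the vessel wall, measured 5.09 and 8.88 in knockout, against 3.57 and 3.94 in wild type. The groups did not overlap, with a log2 difference of 0.71 (SE 0.29, limma adjusted p = 0.464). Fcgr2b, the inhibitory antibody receptor through which sinusoids clear immune complexes, measured 25.1 and 24.7 in knockout, against 17.7 and 22.98 in wild type, also without overlap, with a log2 difference of 0.29 and an SE of 0.21. Clec4g, a lectin of sinusoidal endothelium, measured 24.97 and 27.6 in knockout, against 16.7 and 29.8 in wild type, where wild type replicate 1 was low and the other libraries were close together. Gpr182, an endothelial receptor that scavenges chemokines, measured 4.71 and 7.86 in knockout, against 4.93 and 6.18 in wild type, and Oit3 6.39 and 9.69 in knockout, against 5.05 and 7.05 in wild type, and both overlapped. Dnase1l3, a secreted enzyme that digests DNA of dying cells, measured 22.1 and 35.3 in knockout, against 23.6 and 30.9 in wild type and was not tested, since its loci spanned 44.5% to 62.7% of a coding transcript and 50% was required in every library.

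Of 31 other endothelial genes, 21 were tested, and 8 were higher and 1 lower in both knockout libraries, with a median log2 difference of 0.24. At the unadjusted level 2 were higher and 0 lower. Tie1, a receptor tyrosine kinase of endothelium, measured 3.20 and 3.68 in knockout, against 1.77 and 1.43 in wild type, and Gata4, the transcription factor that sets sinusoidal identity, 7.61 and 7.90 in knockout, against 4.46 and 5.05 in wild type. The water channel Aqp1 measured 28.4 and 34.4 in knockout, against 17.2 and 24.6 in wild type. Coagulation factor F8, which sinusoids make, was the 1 lower, at 2.78 and 2.99 in knockout, against 6.60 and 3.21 in wild type. The BMP ligands of sinusoidal endothelium were higher in both knockout libraries, Bmp2 at 12.6 and 7.52 in knockout, against 7.34 and 7.06 in wild type and Bmp6 at 3.76 and 2.44 in knockout, against 1.22 and 1.59 in wild type, although for Bmp2 knockout replicate 2 was close to wild type and Bmp6 was not tested for its short span.

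Among stellate and matrix markers, the secreted proteins Hgf, Sparc, Reln and Col4a1 had the highest log2 differences. Sparc (chr11:55394500-55423183), a protein that binds collagen as it is laid down, measured 37.4 and 38.1 scaled FPKM in the knockout libraries, against 23.7 and 20.6 in the wild type libraries. The libraries of each genotype were close together, at 37.7 ± 0.550 in knockout and 22.1 ± 2.21 in wild type (SD, n = 2 each), and gave a log2 difference of 0.75 (SE 0.18, limma adjusted p = 0.402). It was held in 1 locus in each library, and as deposited its FPKM were 44.7 and 36.4 in knockout, with the authors' bounds running from 35.9 to 42.9, against 22.2 and 18.8 in wild type, with bounds from 17.7 to 23.2. The 44.7 of knockout replicate 1 lies above the upper bound given with it. Sparc was not alone in this. Values of Lyz2, Cd5l, C1qa and C1qb lay above their upper bounds in every library, and those of Clec4f, Cd68, Dcn and Vsig4 in some. Sparc had the smallest unadjusted p of the stellate and matrix markers, 0.00975. Reln (chr5:21884454-22344702), the secreted glycoprotein reelin that quiescent stellate cells make, measured 6.73 and 5.81 in knockout, against 3.56 and 3.64 in wild type. Its groups were also apart, at 6.27 ± 0.645 in knockout and 3.60 ± 0.0553 in wild type (SD, n = 2 each), and gave a log2 difference of 0.66 (SE 0.19, limma adjusted p = 0.419).

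Hgf (chr5:16553495-16620152), the growth factor that stellate cells supply to hepatocytes, measured 4.44 and 6.02 in knockout, against 3.27 and 1.37 in wild type. Wild type replicate 2 was far lower than the other libraries, and Hgf had a log2 difference of 0.96 (SE 0.35, limma adjusted p = 0.441). Lrat, the enzyme that makes the stored retinyl esters and so marks quiescent stellate cells, measured 3.24 and 2.57 in knockout, against 1.85 and 1.77 in wild type, with a log2 difference of 0.47 and an SE of 0.20. Col4a1 (chr8:11198423-11312826), a collagen of the basement membrane, measured 4.80 and 3.67 in knockout, against 2.36 and 2.48 in wild type, with a log2 difference of 0.61 (SE 0.21, limma adjusted p = 0.438). Its value depended on the processing, at -0.15 when they were summed and 0.10 with GC content and length regressed out.

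Fibrillar collagens were low and overlapped between the genotypes. Col1a1, a chain of type I collagen, measured 1.36 and 0.708 in knockout, against 0.873 and 1.19 in wild type. Its partner chain Col1a2 measured 3.81 and 0.888 in knockout, against 2.22 and 3.14 in wild type. Col3a1, the chain of type III collagen, measured 3.59 and 1.55 in knockout, against 5.06 and 2.95 in wild type, with a log2 difference of -0.52 and an SE of 0.38. Knockout replicate 2 was the lowest library for each. Its loci also covered the largest part of Col1a1 and Col1a2, 33.9% and 81.4% of a coding transcript, so these values are not of the same part. Col1a1 and Col1a2 were not tested, since as little as 11.05% and 23.9% of a coding transcript was assembled. Col14a1, a collagen that coats fibrils, measured 7.12 and 6.20 in knockout, against 7.12 and 4.72 in wild type, and Dcn, the proteoglycan decorin and the most abundant marker of the 40, 73.1 and 60.3 in knockout, against 70.5 and 57.7 in wild type. Both overlapped, with log2 differences of 0.17 and 0.057.

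Ecm1, a matrix protein that holds latent transforming growth factor inactive, measured 15.8 and 37.5 in knockout, against 17.4 and 14.7 in wild type, so that knockout replicate 2 alone stood apart. Its log2 difference of 0.58 had an SE of 0.43 and was -0.025 without that library. Pdgfrb, the growth factor receptor of stellate cells and pericytes, measured 1.94 and 1.59 in knockout, against 1.31 and 1.16 in wild type, and Des, the intermediate filament desmin, 0.853 and 1.30 in knockout, against 0.682 and 0.792 in wild type. Both lay above wild type in both knockout libraries but were not tested, since too little of their transcripts was assembled.

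Of 32 other stellate and matrix genes, 11 were tested, and 6 were higher and 0 lower in both knockout libraries, with a median log2 difference of 0.13. At the unadjusted level 4 were higher and 0 lower. Igfbp3, a carrier of insulin-like growth factors, measured 20.9 and 15.7 in knockout, against 10.9 and 7.83 in wild type, and Igfbp7, a related secreted protein, 121 and 89.7 in knockout, against 49.4 and 85.2 in wild type. The collectin Colec10 measured 13.3 and 12.9 in knockout, against 9.48 and 6.19 in wild type, and the collectin Colec11 17.9 and 16.9 in knockout, against 11.8 and 9.46 in wild type. Gfap and Timp1 had no usable locus in any library. Of the myofibroblast and vascular muscle genes, Acta2 was the 1 tested, at 3.49 and 0.729 in knockout, against 1.84 and 1.39 in wild type, and overlapped.

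**Figure D3:**
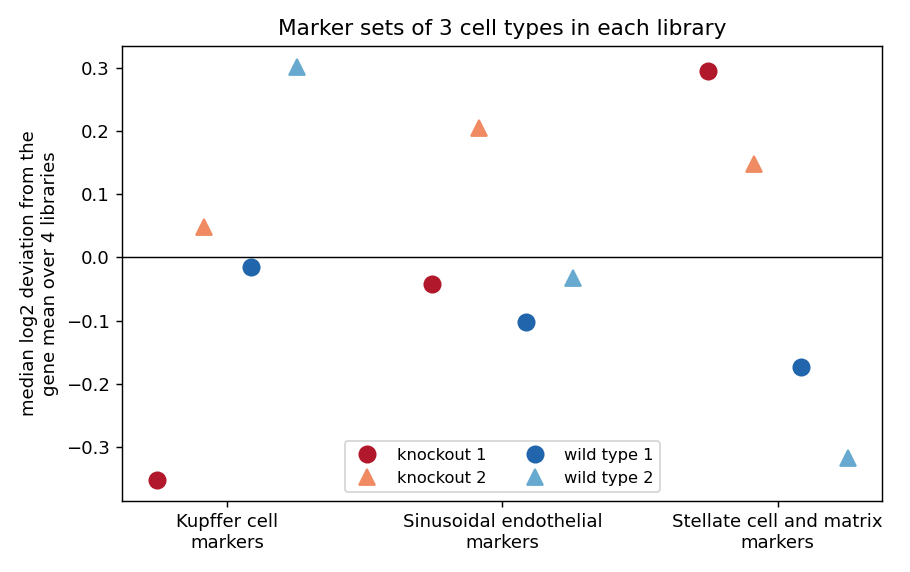
Median over the tested markers of each cell type of the log2 deviation from the gene's mean over 4 libraries, in each library; circles are replicate 1 and triangles replicate 2, red for knockout and blue for wild type. Both red points lie above both blue points for stellate and matrix markers only, at 0.29 and 0.15 against -0.17 and -0.32.

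The markers were also taken library by library, as deviations from each gene's mean over the 4 libraries. The median deviation of Kupffer cell markers was -0.35 and 0.047 in the knockout libraries, against -0.015 and 0.30 in the wild type libraries, which overlap. That of endothelial markers was -0.042 and 0.20 in knockout, against -0.10 and -0.033 in wild type, which also overlap. For stellate and matrix markers it was 0.29 and 0.15 in knockout, against -0.17 and -0.32 in wild type. The knockout libraries differed in order, with stellate and matrix markers highest in replicate 1 and endothelial markers highest in replicate 2. The medians of the log2 differences were -0.87 apart for Kupffer minus stellate markers, -0.46 for Kupffer minus endothelial and -0.41 for endothelial minus stellate. These differences were given no test, and they kept their sign without each library in turn.

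Base composition moved with the libraries. Over the 7932 genes, the log2 difference between the genotypes followed the GC content of the transcript with a Spearman correlation of 0.384. The difference between replicates 2 and 1 followed it with 0.478 in knockout and 0.264 in wild type. Genes share libraries and are not independent. Median GC content was 51.8% for Kupffer cell markers, 51.1% for endothelial markers and 51.1% for stellate and matrix markers. With GC content and length regressed out of each library, the medians were -0.39 for Kupffer cell markers, 0.096 for endothelial markers and 0.23 for stellate and matrix markers. Vsig4, Lyz2, Sparc, Reln and Hgf then had log2 differences of -0.56, -0.46, 0.72, 0.53 and 1.08. Egfl7 and Stab1, both rich in G and C, had 0.27 and 0.49.

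**Figure D4:**
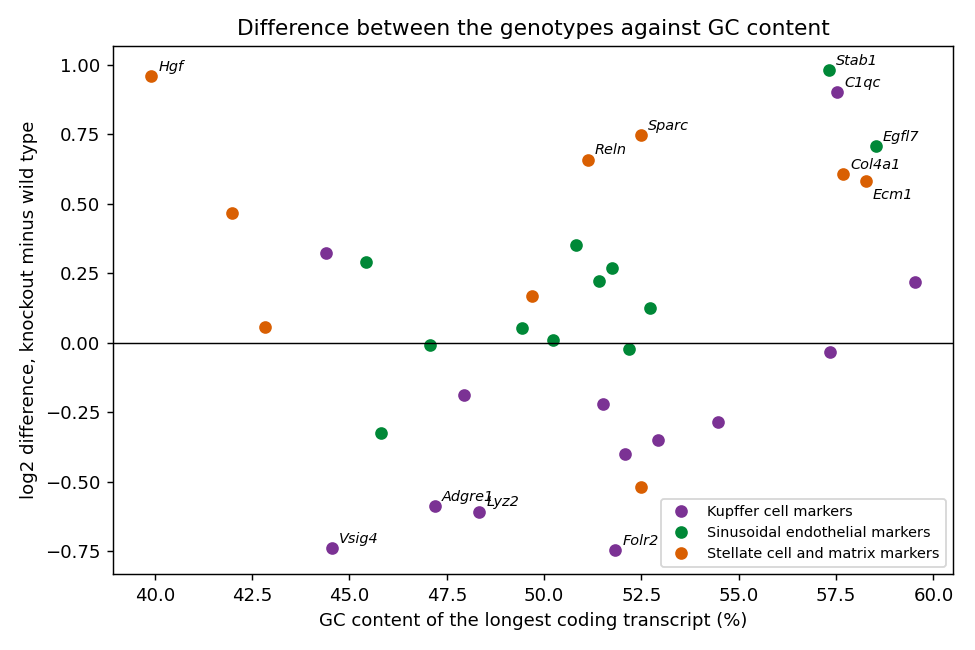
Log2 difference, knockout minus wild type, of the 34 markers tested against the GC content of the longest coding transcript, coloured by cell type. Hgf, at 39.9% G and C, and Sparc, at 52.5%, lie high without the highest GC content. Stab1, C1qc, Egfl7, Col4a1 and Ecm1 lie high between 57.3% and 58.5%. C1qb, at 57.4%, and C1qa, at 59.5%, lie at log2 differences of -0.033 and 0.22.

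For 12 of the markers a single locus was used in every library, although for Clec4g and Des a further locus of knockout replicate 1 had been left out for an FPKM far above its bounds. Of these 12, Clec4f, Cd68 and Lyz2 were lower and Egfl7, Des and Sparc higher in both knockout libraries, with 6 overlapping, a share near the 46.1% of all genes that did not overlap. Of 14 hepatocyte genes 11 were tested, with 1 higher and 4 lower in both knockout libraries and a median log2 difference of -0.23. Tdo2, which degrades tryptophan, measured 401 and 543 in knockout, against 1013 and 889 in wild type, and the tyrosine enzyme Tat 246 and 239 in knockout, against 456 and 407 in wild type. The urea cycle enzyme Ass1 measured 869 and 1081 in knockout, against 1512 and 1935 in wild type, while the apolipoprotein Apoa1 lay higher, at 3421 and 5010.4 in knockout, against 2643 and 1601 in wild type. Their summed level was 24202 and 19885 scaled FPKM in knockout, against 22111 and 23684 in wild type, with Cyp2e1 missing from knockout replicate 2. The part of these shifts in the marker differences was not tested.

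Erythroid genes had a usable locus in the replicate 1 libraries alone, with Hbb-bs, a beta globin gene with a near-identical copy, at 83.5 in knockout replicate 1, against 79.2 in wild type replicate 1. Alas2, the heme synthesis enzyme of red cell precursors, had one in knockout replicate 1 alone, at 38.1. The summed level of 8 bile duct genes was 28.5 and 19.2 in knockout, against 37.5 and 28.9 in wild type, most of it Spp1, at 23.7 and 13.1 in knockout, against 31.5 and 22.4 in wild type. The part of these cells in the marker differences was not tested. Of 12 T and natural killer cell genes, 0 and 9 had a usable locus in the knockout libraries, against 3 and 5 in wild type, with summed levels of at most 5.59 scaled FPKM. Knockout replicate 2 was the deepest library, and a gene with no usable locus is not a gene at 0. Of the neutrophil genes S100a9 was tested, at 1.19 and 2.04 in knockout, against 2.98 and 2.69 in wild type, and Ly6g, Mpo and Elane had no usable locus in any library. Ccr2, a receptor of monocytes that enter tissue from blood, measured 3.28 and 0.419 in knockout, against 1.24 and 1.09 in wild type, and Ly6c2 1.53 and 0.910 in knockout, against 0.686 and 1.84 in wild type, both overlapping. Ccr2 was not tested. Its loci spanned 10.4% and 100% of a coding transcript in knockout, against 41.5% and 34.1% in wild type, so its values cover unequal parts. The bile duct keratins Krt7 and Krt19 had a usable locus only in knockout replicate 2, at 0.475 and 0.454 scaled FPKM.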

How the data were processed

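Liver RNA was sequenced (TruSeq kit, HiSeq 2000), per the labels' protocols. Cufflinks, TopHat and FastQC, with no version, and the build mm9 are listed in the submitters' processing notes. The deposited values are FPKM with lower and upper confidence bounds, made by the authors with Cufflinks, for loci assembled in each library on its own and without gene names. Ends of loci over 2000 bases lay within 20 bases of a gene end of GENCODE release M21 (GRCm38) for 13.5% to 33.2%, against 0.252% to 0.371% after a shift of 50000 bases, so GRCm38 was used.

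A locus went to the protein-coding gene with the largest exonic overlap where 50% or more of the locus fell within that gene, no second gene held over 25% as many exonic bases, it was at least 50% exonic where it touched 1 exon, and its FPKM was at most 3 times the midpoint of its bounds. Genes needed loci over at least 50% of a coding transcript in every library and 1 FPKM in at least 2 libraries, which left 7932. Every tested marker had at least 1.37 scaled FPKM in each library. The library factors were 1.20 and 0.955 in knockout and 0.935 and 0.915 in wild type (median of ratios). limma 3.58.1 in R 4.3.3 compared log2(scaled FPKM + 1), with a trend, two-sided, Benjamini-Hochberg adjusted over all genes, and was tested on simulated data. The pseudocount understates differences of low genes. Alternatives included other pseudocounts, filters and scalings, the highest or the sum of a gene's loci in place of their mean, no minimum span, and leaving out each library.

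The markers, lists and tests were chosen with earlier results of these data known. All 40 markers are named. From each other list up to 4 tested genes with groups apart are named, by size of difference, besides Slc40a1, Hmox1, Spic, Bmp2 and Bmp6. Others named (Clec1b, Msr1, Acta2, Ccr2, Ly6c2, Krt7, Krt19, Hbb-bs, Alas2, Spp1, Hnf4a, Ttr, Cyp2e1 and genes without a usable locus) were chosen after their values were seen. Depth limits apply to counting error only.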

Additional observations from a re-analysis of the deposited data

How the results depend on the processing

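Of 569 marker differences recomputed over 17 alternatives, 535 kept their direction, and 17 of 34 markers kept it in all. The regression on GC content and length was chosen after seeing the data. The medians of the cell types kept their sign under every alternative. Genes past the adjusted threshold numbered 1 with values as deposited and 1 to 385 with a library left out (385 without knockout replicate 1, 29 without knockout replicate 2, 1 without either wild type library). At an unadjusted p under 0.05 they numbered 406 with loci summed, 260 without wild type replicate 1, 283 without wild type replicate 2, 2213 without knockout replicate 1 and 1514 without knockout replicate 2, against 887. Values as deposited moved the median of all genes to 0.19 and gave medians of -0.10 for Kupffer, 0.36 for endothelial and 0.77 for stellate markers, with 2 Kupffer and 6 endothelial markers above and 0 endothelial below. A filter at 5 FPKM left 2 stellate markers above and 0 endothelial below, of 5 and 9 tested. Quantile normalization gave 2 endothelial markers below and an endothelial median of 0.11. The highest locus gave 5 endothelial above and 1 stellate below. Summed loci gave 1 Kupffer above and 2 below, 1 stellate below, a stellate median of 0.34, -0.59 for Kupffer minus stellate and -0.17 for endothelial minus stellate. Any span gave a stellate median of 0.38. Regression on GC content and length gave 1 Kupffer marker above, 0 endothelial below, a stellate median of 0.23 and -0.13 for endothelial minus stellate. With a library left out the medians ranged over -0.53 to -0.024 (Kupffer), 0.065 to 0.31 (endothelial) and 0.46 to 0.59 (stellate), and their differences over -0.60 to -0.32 (Kupffer minus endothelial), -1.12 to -0.49 (Kupffer minus stellate) and -0.52 to -0.15 (endothelial minus stellate). The cause was not tested.

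Directions turned for C1qb (0.17), Tek (0.16) and Cdh5 (0.15) with values as deposited, C1qb (0.0092) and Pecam1 (-0.063) under quantile normalization, C1qc (-0.12) with the highest locus, Pecam1 (-0.0042) with any span, C1qa (-0.30) and Tek (0.058) after regression on GC content and length, and Cd163 (0.47), Csf1r (0.41), C1qc (-0.25), Oit3 (-0.32) and Col4a1 (-0.15) with loci summed. With a library left out, the ranges of those that turned were C1qa -0.076 to 0.54, C1qb -0.25 to 0.21, Cd163 -0.93 to 0.54, Cd5l -0.48 to 0.064, Cdh5 -0.27 to 0.24, Clec4g -0.19 to 0.61, Col14a1 -0.096 to 0.41, Csf1r -0.71 to 0.15, Dcn -0.095 to 0.19, Ecm1 -0.025 to 1.21, Gpr182 -0.20 to 0.46, Kdr -0.069 to 0.20, Pecam1 -0.063 to 0.063 and Tek -0.092 to 0.095.

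Replicate numbers are shared by the genotypes, but the deviations of same-numbered libraries had a correlation of 0.0812 across genes, and the labels do not say what a number marks. Loci of 150 to 250 bases were 38.5% and 4.48% of all in knockout, against 21.3% and 4.49% in wild type, so that this measure followed the replicate number. With the replicate number as a block, 0 genes passed the adjusted threshold and 851 an unadjusted p under 0.05, and the medians stayed at -0.29, 0.17 and 0.58, with differences of -0.46, -0.87 and -0.41. A left-out library leaves 1 library in its group, which is assumed to vary like the others.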

Other observations

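The loci that hold the 3′ end of some markers are given here as FPKM deposited by the authors, and they cover unequal parts of the transcripts. For Stab1 the 3′ locus held 7.35 and 11.98 FPKM in knockout, against 4.31 and 4.66 in wild type. The knockout replicate 2 locus ran on over most of the gene, so its value also covers upstream exons. For Reln the locus with the 3′ end held 11.8 and 6.75 in knockout, against 5.49 and 4.94 in wild type, over 8757 and 15429 exonic bases in knockout and 9883 and 8372 in wild type. For C1qc it held 12.6 and 30.6 in knockout, against 16.04 and 21.8 in wild type. The locus of knockout replicate 2 spans the gene, with 1719 exonic bases, against 792 in knockout replicate 1 and 684 and 674 in wild type, so these values are not of the same part. Both wild type libraries held a further C1qc locus of 1.76 and 2.22 FPKM upstream of it, which lowers their mean, and knockout replicate 1 had none there.

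The loci of Sparc, on the minus strand, began at different positions. In knockout replicate 2 and wild type replicate 2 they reached to 55419924 and 55419791 on chromosome 11, near the RefSeq start of the stretch shown. In knockout replicate 1 and wild type replicate 1 they ended at 55409997 and 55409996, so that this split followed replicate numbers and not genotype.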
